A study of Mus musculus with 32 samples.

Results

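A set of 10 genes that mark the mural cells of blood vessels were followed across hippocampus, meninges and sorted meningeal lymphatic endothelial cells (mLECs). They are Acta2, Tagln, Myh11, Pdgfrb, Rgs5, Des, Cnn1, Mylk, Notch3 and Cspg4, picked by symbol as markers of pericytes and vascular smooth muscle, 10 of the 22337 genes in the deposited tables. RNA-seq was made from 32 samples, each of 1 mouse, all male, 6 months of age and on the C57BL/6J background. Whether a tissue and another with the same replicate number came from the same mouse is not stated. The WT mice were non-carrier littermates of the 5xFAD mice. 5xFAD mice express transgenes with familial Alzheimer's disease mutations from Thy1 regulatory sequence, which is active in neurons, and are a model of brain amyloid rather than of vascular disease. The 5xFAD + light mice received near-infrared light through the skull in sessions of 10 min, given 3 times a week over 4 weeks, while the 5xFAD and WT mice had the same anesthesia and shaving under indoor light. HPC (hippocampus) came from 4 WT, 4 5xFAD and 4 5xFAD + light mice, and meninges from 4, 3 and 3. The mLECs also came from 4, 3 and 3 mice, and were sorted from the meninges of single mice as living cells with CD31 and PDPN and without CD45. A gate of this kind does not select mural cells, so their genes in the mLEC samples come from whatever passed the sort. In bulk samples, fewer cells of a type and less RNA per cell cannot be told apart.

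Mural cells wrap the endothelial tube. Vascular smooth muscle cells surround arteries and arterioles and narrow them by the sliding of smooth muscle actin and myosin, whereas pericytes sit on capillaries inside the basement membrane and help to maintain the blood-brain barrier. The contractile group holds Acta2 (smooth muscle actin), Myh11 (smooth muscle myosin heavy chain), Mylk (the kinase that phosphorylates the myosin light chain and starts contraction), Tagln and Cnn1 (transgelin and calponin, which bind actin) and Des (desmin, the muscle intermediate filament). The surface and signalling group holds Pdgfrb (the receptor through which endothelial PDGF-BB recruits mural cells), Rgs5 (a regulator of G-protein signalling abundant in brain pericytes), Notch3 (the Notch receptor of mural cells) and Cspg4 (the proteoglycan NG2, which oligodendrocyte precursors also carry). Serum response factor drives many contractile genes from CArG boxes in their promoters.

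Total counts per sample were 13952825 to 23856476 for HPC, 6601143 to 14708202 for meninges and 14231415 to 24207326 for mLECs. Genes above 0 per sample numbered 16371 to 18264 in HPC, 17427 to 19769 in meninges and only 5998 to 9020 in mLECs. Levels are given as FPKM, which scales fragments by transcript length and library size, so that genes can be compared with each other. Differences are log2 fold changes from edgeR's quasi-likelihood test on the counts, with the 3 groups of a tissue in a single fit. A gene was tested where 3 or more samples of the fit had an FPKM of 1 or above, and was called where its adjusted p was below 0.05 and its change at least 2-fold. All 10 genes were tested in meninges, 6 of 10 in HPC and 5 of 10 in mLECs. The summed FPKM of 6 choroid plexus markers ranged from 15733 to 49264 in meninges, so these dissections held that tissue too. In HPC that sum was 2795 in WT replicate 2, 3189 in 5xFAD replicate 1 and 2917 in 5xFAD replicate 2, against 36.3 to 693 in the other 9. Lyve1 and Pdpn, which mark lymphatic endothelium, were both listed at 0 in mLEC WT replicates 2 and 4.

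The 10 genes differed widely in level within each tissue. In WT HPC, Rgs5 (ENSMUSG00000026678) was the highest at an FPKM of 10.6 ± 1.00 (SD, n = 4). It was followed by Acta2 (ENSMUSG00000035783) at 3.46 ± 1.12, Cspg4 (ENSMUSG00000032911) at 2.30 ± 0.238, Tagln (ENSMUSG00000032085) at 1.96 ± 0.530, Pdgfrb (ENSMUSG00000024620) at 1.85 ± 0.0763 and Mylk (ENSMUSG00000022836) at 1.63 ± 0.137. Neighbours among these last 5 overlapped from mouse to mouse. Des (ENSMUSG00000026208), Cnn1 (ENSMUSG00000001349), Myh11 (ENSMUSG00000018830) and Notch3 (ENSMUSG00000038146) lay between 0.15 and 0.46 in the 4 WT mice. In WT meninges the order turned to some of the contractile genes, with Tagln at 139 ± 33.1 (SD, n = 4), Acta2 at 96.3 ± 14.01 and Mylk at 49.8 ± 27.7 above Rgs5 at 36.2 ± 15.1. Tagln and Acta2 overlapped in range, as did Mylk and Rgs5. Cnn1 followed at 13.8 ± 6.06, Pdgfrb at 9.40 ± 1.85 and Des at 4.05 ± 1.10, and Myh11, Cspg4 and Notch3 lay between 1.24 and 5.00.

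On GRCm38, Rgs5 lies on chromosome 1 from 169655501 to 169695813, Des on chromosome 1 from 75360329 to 75368579, Cnn1 on chromosome 9 from 22099216 to 22109630, Cspg4 on chromosome 9 from 56865033 to 56899870 and Mylk on chromosome 16 from 34745210 to 35002420, all on the plus strand. Notch3 lies on chromosome 17 from 32120820 to 32166852 and Myh11 on chromosome 16 from 14194535 to 14291372, both on the minus strand. Acta2 lies on the minus strand of chromosome 19, from 34241090 to 34255590 on GRCm38, the build of the GENCODE annotation used here. Its promoter is shown because Acta2 was among the highest members in meninges and because its window was the only one of the 7 at hand with a CArG box. Rgs5, the highest pericyte gene, is shown beside it as a window without one. The windows run from 250 bases before to 50 after the start of the gene in RefSeq (GRCm38.p6), 5′ to 3′ on the strand of the gene. They lie at chr19:34255324-34255623 for Acta2 and chr1:169655251-169655550 for Rgs5. Capitals mark CArG boxes, searched on both strands with at most 1 G or C allowed among the 6 bases of the A/T core.
Acta2: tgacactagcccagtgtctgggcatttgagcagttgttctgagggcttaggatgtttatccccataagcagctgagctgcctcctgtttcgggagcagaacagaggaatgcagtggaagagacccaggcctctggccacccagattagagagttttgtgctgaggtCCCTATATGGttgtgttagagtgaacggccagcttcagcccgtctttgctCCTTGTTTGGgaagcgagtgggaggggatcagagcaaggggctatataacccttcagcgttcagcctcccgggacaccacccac
Rgs5: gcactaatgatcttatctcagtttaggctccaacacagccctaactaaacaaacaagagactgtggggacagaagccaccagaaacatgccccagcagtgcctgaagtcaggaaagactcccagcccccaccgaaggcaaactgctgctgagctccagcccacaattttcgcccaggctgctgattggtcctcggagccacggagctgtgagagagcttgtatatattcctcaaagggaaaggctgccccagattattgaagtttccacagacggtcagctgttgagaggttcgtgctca
The Acta2 window held 2 such boxes, whose first bases lay 84 and 34 bases before the start. The windows of Rgs5, Des, Cnn1, Mylk, Notch3 and Cspg4 held none, and for Tagln, Myh11 and Pdgfrb no window was at hand. That of Mylk, at chr16:34784700-34784999, lies inside the span given above and does not cover the start of that span. A box of this kind was in 9.98% of all 32851 windows and a perfect box, found in 0 of the 7, in 1.63%. TGGGAA, which the Notch partner RBPJ can bind, was in 1 of the 7 windows, again that of Acta2, where it overlapped the second box, against 25.6% of all windows. A match is a description of letters and says nothing of whether a factor was bound.

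WT meninges were compared with WT HPC in a fit of all 22 samples of these tissues. Of the 10 genes, 9 were called higher in meninges, against 30.1% of the 15132 genes tested, and 0 were lower. Tagln showed the widest gap, at 1.49 to 2.70 FPKM in the 4 HPC samples and 92.6 to 171 in the 4 meninges samples, a log2 fold change of 6.39 (SE 0.43, adjusted p = 8.55e-11). Cnn1 had a log2 fold change of 5.46 (SE 0.51, adjusted p = 8.60e-09), Mylk of 5.14 (SE 0.34, adjusted p = 7.03e-11) and Acta2 of 4.80 (SE 0.35, adjusted p = 2.69e-10). The changes of Myh11 (3.48, SE 0.50), Des (3.39, SE 0.35) and Notch3 (3.37, SE 0.33) were smaller, and those of Pdgfrb (2.26, SE 0.18) and Rgs5 (1.59, SE 0.31) the smallest of the called genes. Every WT meninges sample lay above every WT HPC sample for these 9, as for 36.1% of tested genes. Cspg4 was the exception, at 2.09 to 2.64 in HPC and 1.72 to 3.29 in meninges, a log2 fold change of 0.09 (SE 0.23, adjusted p = 0.740). Of the 8 markers of oligodendrocyte precursors, which also carry NG2, 0 were higher and 4 were lower in meninges. Of all tested genes, 21.3% were called lower. The part of oligodendrocyte precursors in the Cspg4 values was not tested.

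**Figure D1:**
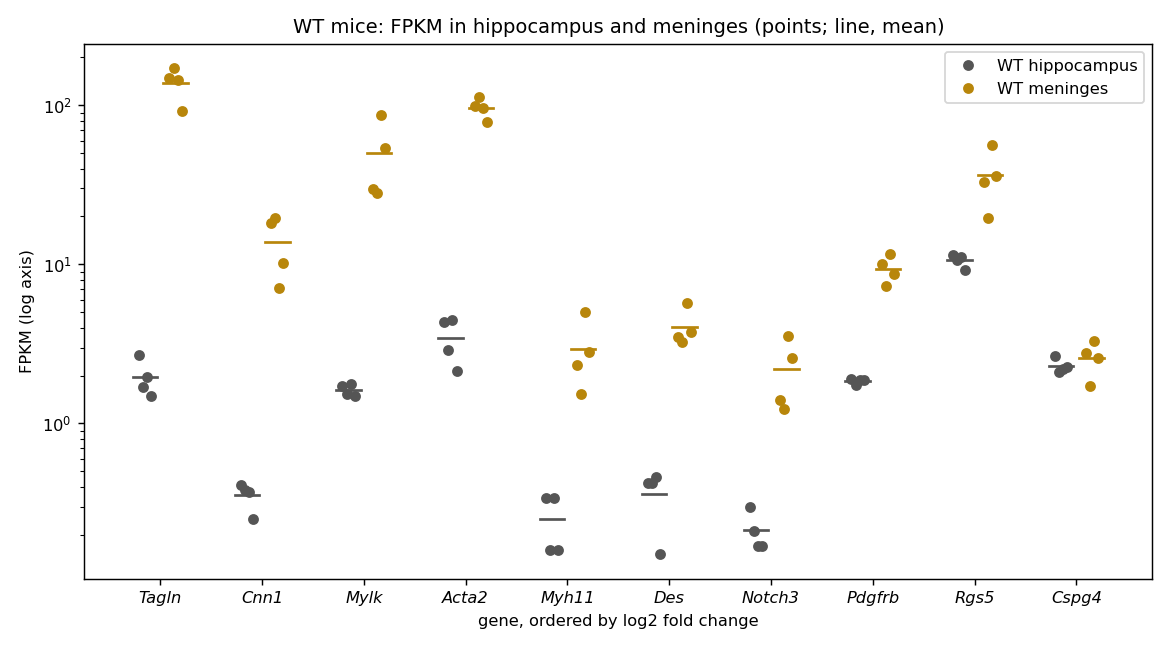
FPKM on a log axis of the 10 genes in 4 WT hippocampus samples (grey) and 4 WT meninges samples (ochre), ordered by log2 fold change; points are mice and lines are means. Meninges lay above hippocampus in every sample for 9 of the 10 genes, and the 2 tissues overlapped for Cspg4.

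The lists of related genes followed the same order in part. Of all tested genes, 30.1% were called higher and 21.3% lower in WT meninges. Of 17 tested genes listed as further contractile genes, 13 were higher in WT meninges and 1 was lower. Myl9 (4.14, SE 0.19), the myosin light chain that the Mylk product phosphorylates, and Cald1 (4.10, SE 0.20), caldesmon, had the smallest p. Of 15 further pericyte genes, 12 were higher and 0 lower, with Ifitm1 (3.98, SE 0.26) and Vtn (2.80, SE 0.21) first. Of 11 Notch pathway genes, 7 were higher and 1 lower, and of 6 PDGF pathway genes 2 were higher, Pdgfrl and Pdgfd. The 11 receptors and channels of vascular tone were split, with 3 higher and 3 lower, Adra1d among the lower at -5.91 (SE 0.42). The counts for the PDGF pathway and vascular tone lay near the shares of all tested genes. The fibroblast markers were higher for 10 of 11 genes and the blood endothelial markers for 11 of 12.

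Tagln was the only member called between mouse groups in HPC, and it was higher in 5xFAD than in WT mice. Its FPKM was 2.70, 1.69, 1.95 and 1.49 in the 4 WT mice and 11.7, 3.29, 5.93 and 2.95 in the 4 5xFAD mice. Every 5xFAD mouse lay above every WT mouse, with replicate 1 far above the others. The log2 fold change was 1.80 (SE 0.44, adjusted p = 0.0217). This was 1 member called of 6 tested, where 4.28% of the 12981 genes tested were called, so the share of the members rests on a single gene. Without 5xFAD replicate 1 the log2 fold change was 1.03 (adjusted p = 0.0443), and without any of the 4 WT mice in turn the adjusted p ranged from 0.0536 to 0.0718, above the threshold. The call was also lost with only the compared groups in the fit (1.81, adjusted p = 0.0595) and with the replicate number as a block (1.61, adjusted p = 0.0562). Tagln (minus strand of chromosome 9, from 45929619 to 45936058) overlaps Pcsk7 on the other strand, and these libraries do not mark strand. Pcsk7 itself had a log2 fold change of -0.06 (SE 0.13, adjusted p = 0.804).

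The other contractile genes moved less in HPC. Mylk was at 1.71, 1.54, 1.78 and 1.49 in WT and at 2.80, 1.74, 1.71 and 1.97 in 5xFAD mice, with a log2 fold change of 0.41 (SE 0.21, adjusted p = 0.242), which was 0.15 without 5xFAD replicate 1. Acta2 ranged from 2.15 to 4.46 in WT and from 1.89 to 8.93 in 5xFAD mice, and its lowest 5xFAD value was in replicate 1, the mouse with the highest Tagln. Acta2 shares near-identical sequence with other actin genes, so reads can be split between them, and Acta1 was at 7.49 to 13.5 in HPC. Cnn1 was at 0.41, 0.38, 0.37 and 0.25 in WT and at 0.75, 0.48, 1.05 and 0.51 in 5xFAD mice. All 5xFAD mice lay above all WT mice for Cnn1, but its counts were 1 to 28 in the 12 HPC samples and it was below the filter. Myh11 (5 to 53 counts) and Des (9 to 38 counts) overlapped between the groups. Of the 6 tested members, 1 (Tagln) had 5xFAD above WT with no overlap, against 8.75% of the tested genes.

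Among the surface and signalling genes, Pdgfrb, Rgs5 and Cspg4 overlapped between 5xFAD and WT in HPC. Pdgfrb was at 1.74 to 1.91 in WT and 1.59 to 2.15 in 5xFAD mice, Rgs5 at 9.15 to 11.4 and 9.69 to 14.9, and Cspg4 at 2.09 to 2.64 and 1.90 to 2.88. Including Acta2, the fold changes of the 4 genes within 2 SE lay between 0.02 and 0.45 on the log2 scale. Notch3 was at 0.30, 0.21, 0.17 and 0.17 in WT and at 0.62, 0.22, 0.45 and 0.35 in 5xFAD mice, which overlapped in 1 mouse of each group. It was below the filter, and without the filter its log2 fold change was 1.05 (SE 0.32, adjusted p = 0.0665). All 6 tested members had a positive log2 fold change, with a median of 0.27, where the median of all tested genes was 0.01 and 52.1% were positive. The smallest of these, that of Cspg4, was 0.02 and became -0.01 without the filter on low values.

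**Figure D2:**
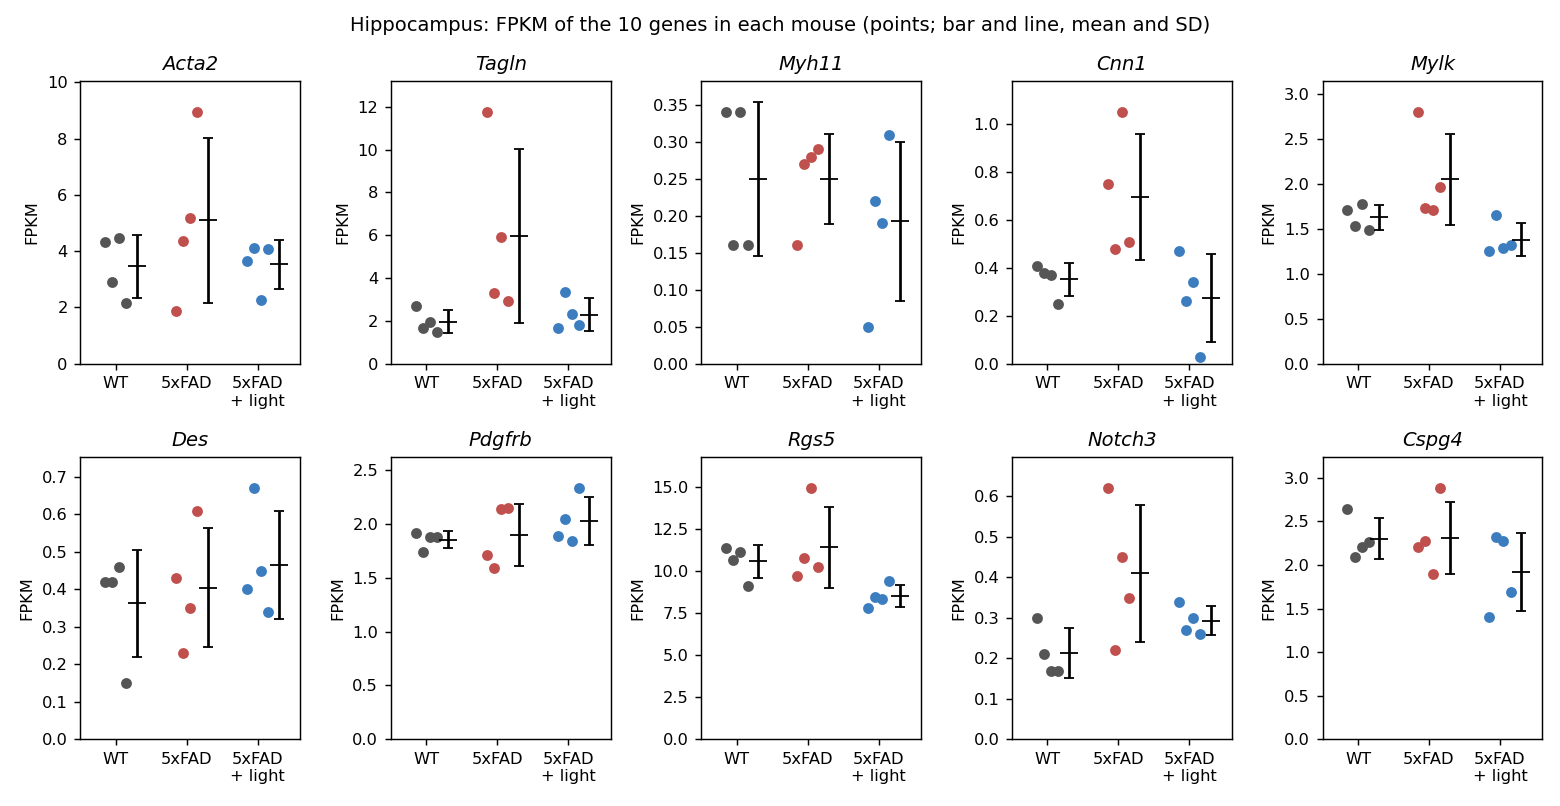
FPKM in hippocampus of the 10 genes in each of 4 WT, 4 5xFAD and 4 5xFAD + light mice (points), with the mean and SD of each group beside them. Tagln reached 11.7 in 5xFAD replicate 1 and lay above WT in all 4 5xFAD mice, and Rgs5 and Mylk lay lower in all 4 5xFAD + light mice than in all 4 5xFAD mice.

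After light treatment, 0 members were called against untreated 5xFAD mice in HPC, where 0.27% of genes were called, although 3 of the 6 tested had an unadjusted p below 0.05, against 18.3% of all tested genes. Tagln was at 1.65, 3.37, 2.33 and 1.81 in the 5xFAD + light mice, of which replicate 2 lay above 2 of the 4 untreated mice, with a log2 fold change of -1.36 (SE 0.43, adjusted p = 0.140). DESeq2 called this change (adjusted p = 0.0421), and without 5xFAD replicate 1 it was -0.59. Mylk was at 1.26, 1.66, 1.29 and 1.32, below all 4 5xFAD mice, with a log2 fold change of -0.75 (SE 0.21, adjusted p = 0.115). This change was -0.48 (adjusted p = 0.180) without 5xFAD replicate 1, and DESeq2 gave -0.74 with an adjusted p of 0.0299, below 2-fold. Rgs5 was at 7.84, 8.47, 8.36 and 9.43, again below all 4 5xFAD mice, with a log2 fold change of -0.39 (SE 0.15, adjusted p = 0.180), which was -0.22 without 5xFAD replicate 3. Without the 3 libraries rich in choroid plexus genes the changes were -0.81 for Tagln, -0.55 for Mylk and -0.56 for Rgs5. Of the 6 tested members, 2 (Mylk and Rgs5) lay lower without overlap, where 3.98% of tested genes did. Cnn1, below the filter, was at 0.47, 0.26, 0.34 and 0.03, also under all 4 untreated mice. Both this comparison and the one with WT use the same 4 untreated 5xFAD mice, so a mouse such as replicate 1 enters both.

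The remaining members stayed within 2 SE after light, with log2 fold changes from -0.55 for Acta2 to 0.09 for Pdgfrb. Acta2 ranged from 2.26 to 4.12, Pdgfrb from 1.84 to 2.33 and Cspg4 from 1.40 to 2.32 in the 5xFAD + light mice, and all 3 overlapped the untreated mice. Notch3 lay between 0.26 and 0.34, Des between 0.34 and 0.67 and Myh11 between 0.05 and 0.31, all at low counts. Against WT, 0 of the 6 tested members were called in 5xFAD + light mice, where 2.36% of genes were called. Their log2 fold changes lay between -0.33 for Mylk and 0.44 for Tagln, and 0 of the 10 genes were without overlap, against 14.9% of tested genes.

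Markers of fibroblasts, a cell type of the leptomeninges and large vessels, moved with these changes in HPC. The summed FPKM of 11 fibroblast markers was 192 to 302 in WT, 431 to 662 in 5xFAD and 141 to 338 in 5xFAD + light mice, and 0 of the 11 were at 0 in any HPC sample. Of the 10 tested, 3 were called higher in 5xFAD than in WT mice, Col1a2 (1.83), Mgp (1.66) and Col1a1 (1.01), where 4.23% of all tested genes were. All 10 had a negative log2 fold change after light, with a median of -1.39 and 0 called. 5xFAD replicate 1, with the highest Tagln, also had the highest summed fibroblast and choroid plexus markers. Macrophage and microglia markers were called higher in 5xFAD mice for 6 of 6 tested genes, and the 9 tested blood endothelial markers had 0 called, with a median of 0.09. Leaving out the 3 libraries rich in choroid plexus genes, chosen after the data were seen, gave Tagln a log2 fold change of 1.28 (adjusted p = 0.0448) between 5xFAD and WT mice. The part of fibroblasts in the Tagln result was not tested.

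Related genes in HPC were described by lists. Of all tested genes, 4.28% were called between 5xFAD and WT mice, 0.27% after light and 2.36% in 5xFAD + light against WT mice. Of 13 tested genes listed as further contractile genes, 0 were called between 5xFAD and WT mice and 11 had a positive log2 fold change. Crip1 was at 0.90 (SE 0.21, adjusted p = 0.0161), below 2-fold, and Myl9 at 0.43 (SE 0.15, adjusted p = 0.0943). The cells behind the Crip1 value were not tested. Of 11 further pericyte genes, Ifitm1 was called higher at 1.13 (SE 0.28, adjusted p = 0.0246), and after light it was at -1.25 (SE 0.29, adjusted p = 0.0687). Higd1b, a gene expressed in brain pericytes, was at 0.60 (SE 0.26, adjusted p = 0.182) and then at -0.82 (SE 0.27, adjusted p = 0.145). Of 8 Notch pathway genes, 0 were called, and Rbpj, the DNA-binding partner of the Notch receptors, passed the adjusted p but not the fold, at 0.65 (SE 0.16, adjusted p = 0.0221). The 6 PDGF pathway genes had 0 called in each comparison of HPC. Among the 5 tested genes listed as transcription factors of smooth muscle, Nr2f2 was called lower in 5xFAD + light than in WT mice, at -1.14 (SE 0.26, adjusted p = 0.0237). Which cells its transcripts came from was not tested. Srf, the serum response factor, was at 0.39 (SE 0.30) in 5xFAD against WT. Among the 9 tested genes of vascular tone, Cacna1c, the pore of an L-type calcium channel that neurons share, was called higher after light, at 1.04 (SE 0.15, adjusted p = 0.0328).

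Meninges, where Tagln and Acta2 were the highest members, showed 0 members called between 5xFAD and WT mice. Here 0 of the 14318 genes tested were called by edgeR, a share of 0%, with 4.01% at an unadjusted p below 0.05, of which 0 were members. Acta2 was at 98.4, 112, 96.8 and 78.0 in WT and at 121, 95.5 and 112 in 5xFAD mice. Tagln was at 148, 171, 145 and 92.6 in WT and at 191, 169 and 159 in 5xFAD mice, a log2 fold change of 0.34 (SE 0.24, adjusted p = 0.987). The groups overlapped for all 10 genes, where 4.85% of tested genes had no overlap. Of the 10, 9 had a positive log2 fold change, with a median of 0.27, where 49.6% of all genes were positive, and the values ran from -0.06 for Notch3 to 0.65 for Rgs5. Des was at 0.02, and at -0.01 without the filter. Individual meninges differed as much as the groups did, with Rgs5 at 19.6 to 56.2 and Mylk at 28.1 to 87.5 among the WT mice alone. In counts simulated with the spread of these samples, 2 of 200 genes changed 2-fold and 158 of 200 changed 4-fold were recovered. Recovery meant an adjusted p below 0.05 in the right direction, without the fold threshold of a call. Even by this looser rule, a 2-fold change between 5xFAD and WT meninges was mostly not detectable.

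Light-treated and untreated 5xFAD meninges also gave 0 members called, where 0.014% of genes were called. Cspg4 differed most in units of its SE, at 1.98, 4.29 and 3.56 in 5xFAD and 1.47, 1.86 and 2.09 in 5xFAD + light mice, a log2 fold change of -0.86 (SE 0.31, adjusted p = 0.315). The highest treated mouse lay above the lowest untreated mouse. Tagln was at 140, 103 and 142 in the treated mice, all below the 3 untreated mice, with a log2 fold change of -0.44 (SE 0.26, adjusted p = 0.481), and it was 1 of 10 members lower without overlap, where 10.7% of all tested genes were. Mylk was at 68.5, 51.7 and 30.0 in 5xFAD and 32.7, 35.4 and 28.2 in 5xFAD + light mice, a log2 fold change of -0.65 (SE 0.39, adjusted p = 0.489). Acta2 was level, at 92.5, 110 and 139 in the treated mice. In all, 8 of 10 members had a negative log2 fold change, with a median of -0.17, against 47% of all tested genes and a median of 0.04. Myh11 was among the 8 at -0.07, and at 0.01 without the filter.

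Pdgfrb, the receptor for PDGF-BB, was the member furthest from WT, in units of its SE, in light-treated meninges. It was at 10.02, 7.29, 11.6 and 8.68 in WT, 7.78, 9.55 and 14.2 in 5xFAD and 12.2, 14.1 and 12.9 in 5xFAD + light mice. All 3 treated mice lay above all 4 WT mice, with a log2 fold change of 0.49 (SE 0.23, adjusted p = 0.313), so it was not called, and 1 of 10 members lay higher without overlap where 6.99% of tested genes did. Against WT, 0 members were called and 0.014% of genes were. The other 9 members had log2 fold changes from -0.59 for Mylk to 0.53 for Rgs5 against WT, each within 2 SE. Pdgfrb is also expressed by fibroblasts, whose summed markers in meninges were 10018 to 16954 in WT, 16979 to 20262 in 5xFAD and 10215 to 14897 in 5xFAD + light mice. Gene by gene, 8 of these 11 markers had a positive log2 fold change in 5xFAD + light against WT mice, with a median of 0.28, and 7 of 11 against untreated 5xFAD mice, with a median of 0.17, and 0 were called in either. The part of fibroblasts in the Pdgfrb values was not tested.

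**Figure D3:**
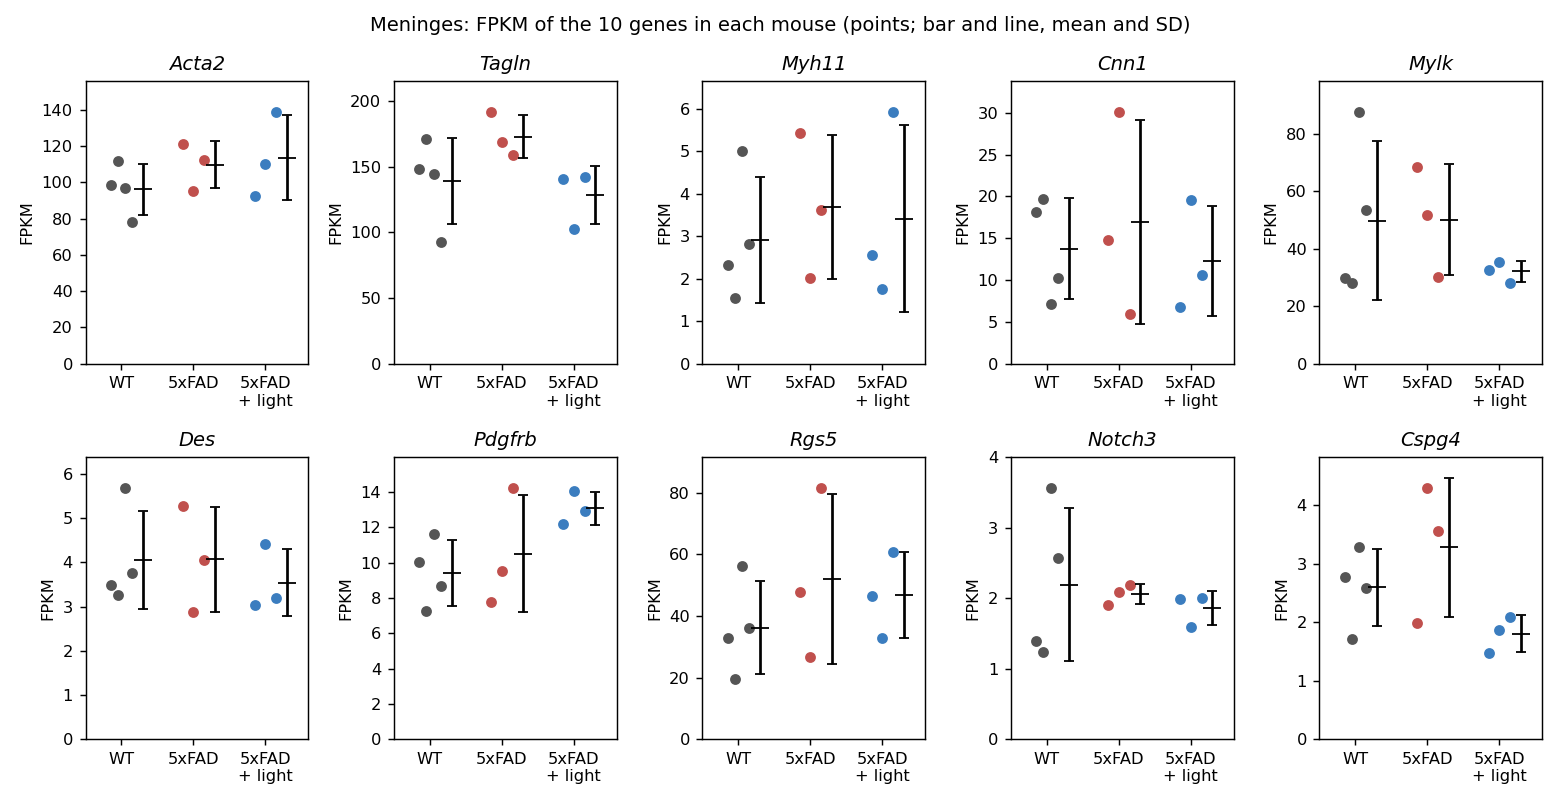
FPKM in meninges of the 10 genes in each of 4 WT, 3 5xFAD and 3 5xFAD + light mice (points), with the mean and SD of each group beside them. The groups overlapped for most genes, and the exceptions were Tagln, lower in all 3 light-treated than in all 3 untreated 5xFAD mice, and Pdgfrb, at 12.2 to 14.1 after light against 7.29 to 11.6 in WT.

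**Figure D4:**
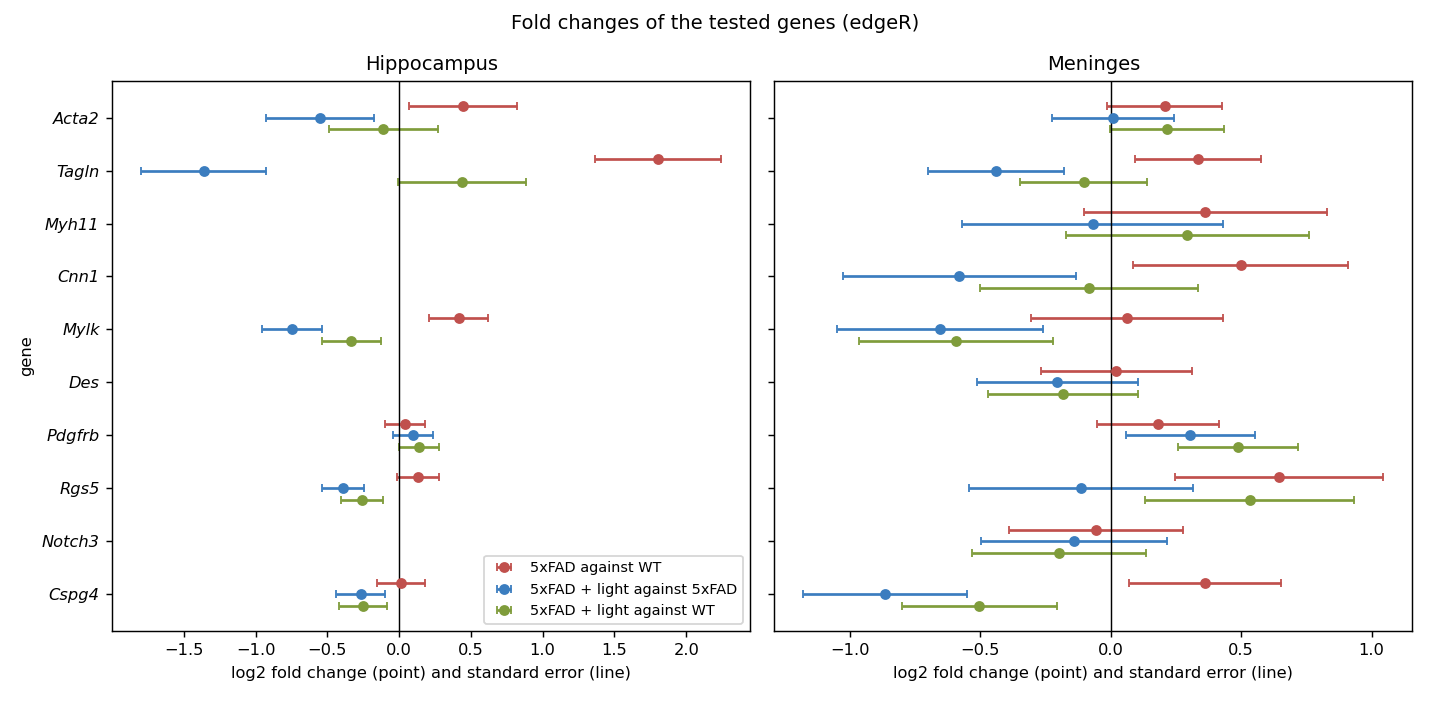
Log2 fold changes (points) with standard errors (lines) of the tested genes in hippocampus (6 genes) and meninges (10 genes) for the 3 comparisons of mouse groups; the 2 panels have different horizontal scales. Tagln in hippocampus, at 1.80 for 5xFAD against WT, is the only called point.

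Of the related genes in meninges, 0 were called in any list between 5xFAD and WT or between light-treated and untreated mice. The smallest p values after light were those of Slc6a20a, at 0.96 (SE 0.24, adjusted p = 0.286), Notch1, at -1.13 (SE 0.29, adjusted p = 0.286), Ppp1r12b, a regulatory subunit of myosin phosphatase, at -0.92 (SE 0.28, adjusted p = 0.289), and the Notch ligand gene Jag2, at -1.21 (SE 0.41, adjusted p = 0.305). Pdgfb, which encodes the ligand of the Pdgfrb product, was at -1.15 (SE 0.50, adjusted p = 0.370) and Pdgfd, a further ligand, at 0.65 (SE 0.27, adjusted p = 0.351). Against WT, Pdgfd was at 1.07 (SE 0.25, adjusted p = 0.117) and Gja4, a connexin gene of arteries, at -1.76 (SE 0.46, adjusted p = 0.142).

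The effect of light and the effect of the 5xFAD genotype were each compared between meninges and HPC by an interaction term, which called 0 of the 10 members in both. For light, the share called among all 15132 genes was 0.971%, and the members' differences lay between -0.63 for Cspg4 and 0.89 for Tagln. For the genotype, 1.69% of genes were called. The effect on Tagln was lower in meninges than in HPC by a log2 difference of -1.47 (SE 0.52, adjusted p = 0.181) and that on Notch3 by -1.14 (SE 0.45, adjusted p = 0.261). Without HPC 5xFAD replicate 1 the difference for Tagln was -0.70 (adjusted p = 0.425). So the call of Tagln in HPC and its absence in meninges do not show that the effects differ. Among the related genes, Slc6a20a (1.99, SE 0.45, adjusted p = 0.0419) was called higher and Adra1d (-5.53, SE 1.31, adjusted p = 0.0479) lower in the interaction of light. The fibroblast genes Col1a1 and Col1a2 were called too. The HPC libraries rich in choroid plexus genes were kept in this fit. After light, the 6 choroid plexus markers had a median log2 fold change of -2.29 in HPC and 0.23 in meninges. The part of such tissue in these calls was not tested.

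Sorted mLECs held transcripts of most of these genes in some samples and not in others, and the groups could not be separated. The summed FPKM of 11 fibroblast markers was 1061 to 2166 in WT, 1625 to 2878 in 5xFAD and 1972 to 5356 in 5xFAD + light samples. Of the 11, 6 to 8, 4 to 6 and 6 to 7 were at 0 in these groups. Which cells the transcripts of the members came from was not tested. The mLEC values come from a table of their own and are set beside the others without a test. Acta2 was at 291 and 377 in 5xFAD replicates 1 and 2, at 42.4 in WT replicate 3, at 17.7 in 5xFAD + light replicate 3 and at 0 to 0.21 in the other 6 samples. The 2 samples with the most Acta2 also had the most Tagln, at 104 and 179, and were the only ones with Myh11 above an FPKM of 1, at 7.09 and 7.81. Des was at 12.5 and 11.3 in them, at 12.5 in WT replicate 3 and at 0 in the other 7. Tagln was also at 58.8, 23.5, 19.0 and 13.0 in samples whose Acta2 was 0.06, 0.02, 42.4 and 0.21, so the 2 genes were not always found together. Mylk was above 0 in all 10 samples, from 0.19 to 53.3. Its 3 light-treated samples, at 16.0, 8.41 and 53.3, lay above the 4 WT samples, at 5.69, 0.19, 6.39 and 2.82, where 3.64% of tested genes did so, with a log2 fold change of 1.95 (SE 1.49, adjusted p = 1.00).

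Rgs5 and Pdgfrb were highest in another mLEC sample. Rgs5 was at 449 in WT replicate 4, which was the only sample with Pdgfrb, at 6.11. In the other 9 samples Rgs5 ran from 0 to 47.7, the latter in 5xFAD replicate 2, which was rich in contractile genes. Pdgfrb was 0 in 9 of 10 samples, and a count of 0 allows up to 3 counts in a library. Cnn1 was 0 in 9 of 10 samples, Notch3 in 8 and Cspg4 in 8, with no FPKM above 0.26 for any of them. WT replicate 4 also had Lyve1, Pdpn, Ccl21a and Reln at 0, with Prox1 at 5.71 and Pecam1 at 247. The summed FPKM of 7 lymphatic markers was 55.7 in it and 38.0 in WT replicate 2, against 1156 to 9718 in the other 8 samples. The contractile genes were low in this sample, with Acta2 at 0 and Tagln at 0.28.

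**Figure D5:**
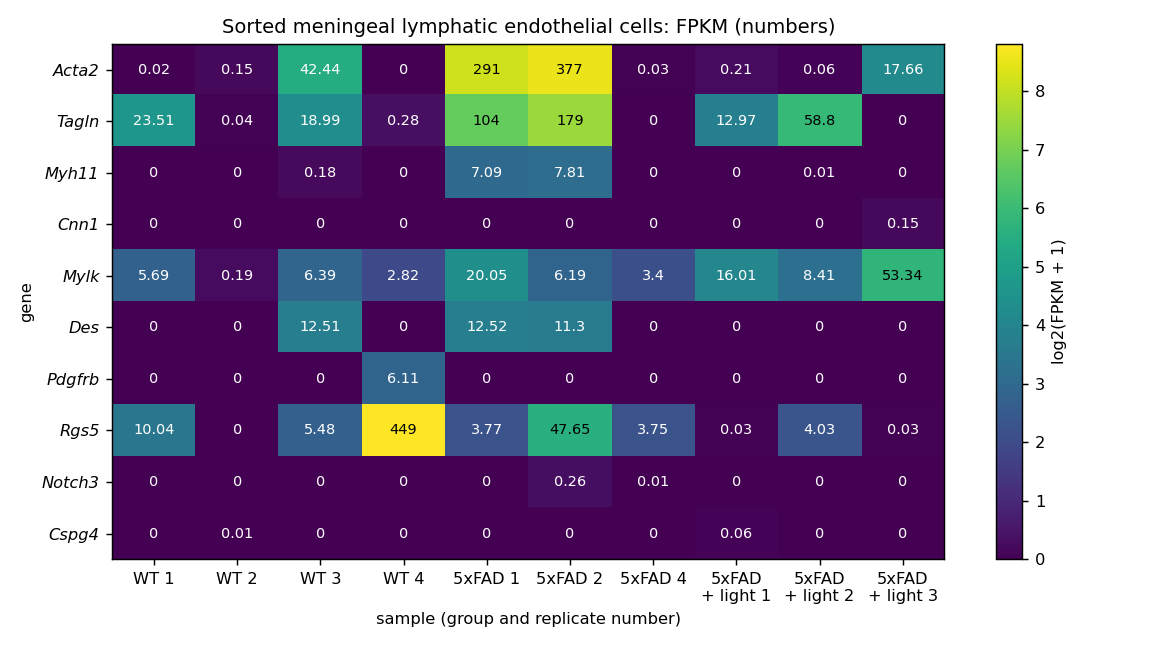
FPKM of the 10 genes (rows) in each of 10 samples of sorted meningeal lymphatic endothelial cells (columns), with the colour on a log2(FPKM + 1) scale and the FPKM written in each cell. Acta2, Tagln, Myh11 and Des are high together in 5xFAD replicates 1 and 2, and Rgs5 and Pdgfrb in WT replicate 4, at 449 and 6.11.

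In mLECs, 0 members were called in each of the 3 comparisons. The share of all 8188 genes called was 0% for 5xFAD against WT and for light against untreated, with 3.81% and 4.01% at an unadjusted p below 0.05, and 0.0122% for light against WT. Rgs5 had the largest difference relative to its SE among the members between light-treated and WT mice, a log2 fold change of -6.08 (SE 2.75, adjusted p = 0.740). Without WT replicate 4 it was -1.93, without 5xFAD + light replicate 2 it was -11.7, without both WT replicates low in lymphatic markers it was -2.52, and with no filter on low values Rgs5 was called (-5.94, adjusted p = 0.00346). Des passed the filter only through 3 samples of the other groups, and was 0 in all 3 light-treated samples. A floor of 3 counts per library was set for these zeros, which covers counting error and not the spread between samples. Against it, the mean of Des was at least 123-fold higher in 5xFAD and at least 48.2-fold higher in WT samples. Yet these values rested on the samples that passed the filter, 2 of 3 and 1 of 4. The log2 fold changes of light-treated against 5xFAD and WT samples were -11.74 (SE 5.55) and -10.52 (SE 5.24), with adjusted p = 1.00 and 0.779. The differences within 2 SE had log2 fold changes from -6.31 to 4.34, with SE from 1.47 to 3.51. In counts simulated with this spread for 5xFAD against WT, 1 of 200 genes changed 4-fold was recovered by adjusted p alone. A 4-fold difference was thus mostly not detectable in that comparison, and the comparisons with light-treated samples were not simulated.

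The genes most like Acta2 and Pdgfrb over samples were sought as a description, by Pearson's r of log2(FPKM + 1) over 12 HPC or 10 meninges samples, which share the groups. In HPC, Ucp3 (r = 0.90), Acy1, Iqcg, Cfap54 and Ak7 were most like Acta2, and H2bc12 (r = 0.87), Tmco6, Frmd4b, Slc50a1 and Btbd19 most like Pdgfrb, among 12645 genes. In meninges, Prkaa1 (r = 0.94), Tspan6, Ddx50, Abce1 and A2m were most like Acta2, and Mrnip (r = 0.98), Haus4, Arhgap15, Accs and Adgrg6 most like Pdgfrb, among 13901 genes. No other member was among the 5 nearest genes in either tissue.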

How the data were processed

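RNA-seq of HPC (12 samples), meninges (10) and sorted mLECs (10) was analysed from 2 deposited tables, 1 for both tissues and 1 for the mLECs. Libraries followed a Smart-seq2 protocol with oligo-dT priming, which does not mark strand. The study's methods name fastp for read filtering and RSEM for quantification, whereas the submitters' processing notes name Trimmomatic, HISAT2, StringTie, DESeq2 and the mm10 build, and the sources used here do not settle which of them made the tables. The authors deposited expected counts per gene, which were not scaled. FPKM values, scaled by transcript length and library size, were deposited by the authors beside them.

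Members were found by symbol in the mLEC table and joined by gene identifier, since the other table writes Acta2 as ACTA2. The members and the lists of related genes were chosen with earlier results of these data known, so no list is independent support. After rounding of the expected counts, edgeR 4.0.16 (R 4.3.3) was run with TMM scaling, its quasi-likelihood test and Benjamini-Hochberg adjustment over all tested genes. The filter, 3 or more samples with an FPKM of 1 or above, left 12981 genes in HPC, 14318 in meninges, 8188 in mLECs and 15132 in the fit of both tissues, with biological coefficients of variation of 0.198, 0.350, 1.89 and 0.286. On simulated data with these spreads, 5xFAD was compared with WT. In HPC, 146 of 200 genes changed 2-fold and 190 of 200 changed 4-fold were recovered, in meninges 2 and 158, and in mLECs 0 and 1. Recovery meant an adjusted p below 0.05 in the right direction, without the fold threshold. Calls, which also ask for a 2-fold change, could recover no more than this. Alternatives were DESeq2 1.42.0, median-of-ratios scaling, no filter, a fit without the third group, a block on replicate number, adjusted p without the fold, limma 3.58.1 on log2(FPKM + 1) and log2(FPKM + 0.1), and leaving out each replicate. Fits without the 3 HPC libraries rich in choroid plexus genes and without the 2 mLEC libraries low in lymphatic markers were added after the data were seen, as were the alternatives for Rgs5 in mLECs. The floor for a count of 0 is 3 counts and covers counting error only. Levels of all 10 members are given in every tissue, and a fold change with its SE where it exceeds 2 SE, where the gene is called or where the text turns on it. From the other lists come the called genes and up to 4 genes with the smallest p. Promoter windows were matched by symbol for 7 of the 10 members.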

Additional observations from a re-analysis of the deposited data

Results flagged for a closer look

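In groups of 4 samples, a member's highest or lowest value was set against the gap to its nearest neighbour divided by the range, as in Dixon's test, and 9 of 48 such groups held a value beyond the critical value. Chance gives about 1 in 20 for normally distributed values, but in WT mLECs Myh11, Pdgfrb, Des and Cspg4 were at 0 in the other 3 samples, where any value above 0 passes, so the 2 shares cannot be compared. Of the 9, 6 lay in the WT mLECs, among the 8 members with any value there. WT replicate 3 of the mLECs stood apart with Acta2 at an FPKM of 42.44, Des at 12.51 and Myh11 at 0.18, and WT replicate 4 with Rgs5 at 448.6 and Pdgfrb at 6.11. Cspg4 was at 0.01 in WT replicate 2 and at 0 in the other 3. In HPC, Des was at 0.15 in WT replicate 4, below the other WT mice, Myh11 at 0.16 in 5xFAD replicate 1, below the other 5xFAD mice, and Mylk at 1.66 in 5xFAD + light replicate 2, above the other treated mice. In WT meninges, 0 of 10 members held such a value.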

How the results depend on the processing

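The call of Tagln between 5xFAD and WT in HPC decided the count of members called, which was 1, and which was 0 with the compared groups alone (log2 fold change 1.81, adjusted p = 0.0595) and 0 with the replicate number as a block (1.61, adjusted p = 0.0562). Leaving out 1 mouse at a time gave 0 to 1 members called, with 0 when any of the 4 WT mice was left out, and Tagln log2 fold changes from 1.03 to 2.07. DESeq2 called 1 member after light in HPC, Tagln (-1.36, adjusted p = 0.0421), and no filter on low values gave 1 member, Rgs5, between light-treated and WT mLECs. The cause of these shifts was not tested. The 9 members called between WT meninges and WT HPC stayed at a count of 9 in every alternative run, and 3 fold changes near 0 changed sign without the filter on low values, those of Cspg4 in HPC and Des in meninges (5xFAD against WT, 0.02 to -0.01 for both) and of Myh11 in meninges after light (-0.07 to 0.01). Within a tissue, same-numbered samples of different groups did not all deviate together, with 0 of 12 pairs in HPC, 2 of 9 in meninges and 0 of 8 in mLECs above a correlation of 0.1, so the numbers were not taken as pairs. Whether same-numbered samples of HPC and meninges deviate together was not checked. The block changed no other count of members called. DESeq2 called 192 of all genes after light in HPC, against 35 with edgeR. Total counts in mLECs were as high as in HPC, but 5998 to 9020 genes were above 0 per sample, against 16371 to 18264 in HPC. The biological coefficient of variation was 1.89 in mLECs, against 0.198.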
